A study of Mus musculus with 2 samples.

Results

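The acute phase transcripts of the liver and the fibrinogen chains were followed as 10 genes, chosen by symbol from the 32285 genes of each library: Saa1, Saa2, Saa4, Lcn2, Hp, Hpx, Orm1, Fga, Fgb and Fgg. All 10 were found once in both libraries and none was removed by a filter. The study made 1 single-cell library per genotype from liver non-parenchymal cells, the cells of the liver other than hepatocytes, obtained by collagenase from male mice aged 5 months on standard chow without drug treatment. Hep-ADKTg (Tg) mice overexpress adenosine kinase, the enzyme that turns adenosine into AMP, from the albumin promoter, which is active in hepatocytes, and Hep-ADKWT (WT) mice are the controls named in the labels. The labels do not say how many mice gave cells to a library, so genotype, animal and preparation cannot be told apart, and nothing below carries a test. Values are counts of unique molecular identifiers (UMIs) summed over the cells of a class and given per 1000000 UMIs of that class (CPM), in the order WT, Tg. Intervals in parentheses are exact 95% intervals and cover counting error only.

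The acute phase response is the change in liver secretion that follows infection or injury, when interleukin 6, interleukin 1 and tumour necrosis factor reach hepatocytes and act through STAT3, NF-kB and C/EBP factors. Saa1 and Saa2 encode serum amyloid A proteins carried on HDL, and Saa4 encodes a constitutive relative. Lcn2 encodes lipocalin 2, which withholds siderophore-bound iron from bacteria. Hp encodes haptoglobin, which binds free haemoglobin, Hpx encodes haemopexin, which binds haem, and Orm1 encodes the carrier orosomucoid. Fga, Fgb and Fgg encode the 3 chains of fibrinogen, the precursor of the fibrin clot. Neutrophils also carry lipocalin 2 and haptoglobin in their granules, and in droplet data transcripts freed from broken hepatocytes enter the droplets of other cells, so the same genes were read in 3 places: hepatocytes, neutrophils, and cells that do not make them.

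The WT library held 97135016 UMIs in 15663 barcodes and the Tg library 96481752 in 17462. The filters kept 12482 WT and 14449 Tg cells, whose median depth was 4807 and 2785 UMIs, and 88 barcode sequences occurred in both libraries. Although the labels name non-parenchymal cells, 1544 WT and 6118 Tg cells (12.4% and 42.3%) were hepatocyte-like by their markers, with albumin at 19055 and 22316 CPM. Adk itself stood at 708 and 576 CPM in these cells and at 502 and 523 CPM in the deep ones defined next, so a higher Adk level did not mark the library labelled Tg in the pooled cells; the deposited counts do not separate transgene from endogenous transcripts. Hepatocyte-like cells were split by depth into deep cells (at least 10000 UMIs, 98 and 959 cells), middle-depth cells (2000 to under 10000 UMIs, 407 and 818) and low-depth cells (under 2000 UMIs, 1039 and 4341). The clusters behind these classes differed between libraries: 83.1% of the WT low-depth cells lay in a cluster called cluster 1 here, which had many cells of both libraries, and 73.5% of the Tg ones lay in cluster 0. Cluster 1 also held 27 of the 98 deep WT cells and 18 of the 959 deep Tg cells. Its WT cells had a median of only 1313.5 UMIs, and levels compared between libraries, depths or zones are also given without it.

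In deep hepatocyte-like cells all 10 genes had a higher CPM in the library labelled Tg. Of all 10187 genes with at least 50 UMIs in these cells, 38.7% were higher there. The median log2 ratio of the 10 genes was 0.49, against -0.086 over all genes. Saa1 alone was 2-fold or more higher, a fold that 1.64% of all genes passed. Without cluster 1 (71 and 941 cells) the median was 0.37 against -0.022 over all genes, 9 of the 10 were higher against 47% of all genes, and both Saa1 and Saa2 passed 2-fold, against 2.05%. The deep cells also differed in zone genes: 12 of 15 periportal genes were lower in Tg, and 8 of the 14 measured pericentral genes were higher; their part in the result was not tested. With at most 10% mitochondrial UMIs, which leaves 32 and 162 deep cells, the order of the genes turned. The log2 ratio was then 2.25 for Fga, 1.81 for Hpx and 1.40 for Hp, against 1.29 for Saa1 and 0.69 for Saa2. This limit falls unevenly on the clusters. The median mitochondrial share was 16.4% and 13.8% in cluster 10, which held most deep cells, and 0.321% and 0.690% in cluster 1. The part of the clusters in the turn was not tested.

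Saa1 stood at 3759 and 7754 CPM in deep cells, a ratio of 2.06 (2.03–2.10). Saa2 stood at 3200.3 and 6192 CPM (ratio 1.93, 1.90–1.97). Both were about as far apart without cluster 1, at 3835 and 7776 CPM for Saa1 and at 3083 and 6200.4 CPM for Saa2. These genes lie side by side on mouse chromosome 7 (GRCm38), Saa1 on the minus strand at chr7:46740497-46742980 and Saa2 on the plus strand at chr7:46751790-46754313, with 8810 bases between their annotated gene starts. Their transcripts are 94.4% identical over the whole length and 94.3% over the last 300 bases, where 3′ reads fall, so how reads were divided between them is uncertain and their sum is the safer value. Saa1 made up 54.0% and 55.6% of that sum in deep cells. Saa4, at chr7:46727998-46732603, stood at 277 and 483 CPM (ratio 1.74, 1.63–1.86; 1.63 without cluster 1).

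The stretches upstream of the Saa1 and Saa2 starts are shown because the pair varied together in single cells and the sequences are nearly the same: over 250 bases before each RefSeq start they were 95.6% identical. Each is written 5′ to 3′ on the gene's own strand (RefSeq, GRCm38.p6) and stops where the annotated gene begins. Capitals mark matches on either strand to the C/EBP motif TTGCNNAA and to the NF-kB motif GGGNNNNNCC.
Saa1, chr7:46742981-46743230, minus strand: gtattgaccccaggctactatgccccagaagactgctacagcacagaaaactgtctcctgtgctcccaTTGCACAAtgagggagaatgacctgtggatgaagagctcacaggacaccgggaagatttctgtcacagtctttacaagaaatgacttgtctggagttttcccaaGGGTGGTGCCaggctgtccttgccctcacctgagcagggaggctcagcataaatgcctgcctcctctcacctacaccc
Saa2, chr7:46751583-46751789, plus strand: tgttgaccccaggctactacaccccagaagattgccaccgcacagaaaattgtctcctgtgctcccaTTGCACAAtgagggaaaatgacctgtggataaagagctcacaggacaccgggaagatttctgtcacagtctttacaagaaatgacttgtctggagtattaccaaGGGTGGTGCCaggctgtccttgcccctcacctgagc
Both hold TTGCACAA and GGGTGGTGCC, each about equally far from the RefSeq start, at 182 and 78 bases upstream in Saa1 and at 183 and 79 bases in Saa2. The printed Saa2 stretch ends 44 bases upstream of its RefSeq start, because the annotated gene begins earlier. Of the 10 genes, 8 had an entry in the promoter table. Over the 250 bases before the RefSeq start, 7 of these 8 held the C/EBP motif (all but Fgg), which 9.56% of 32851 promoters held over the same length. For Lcn2 these bases lie wholly inside the annotated gene, and for Fga, Saa2 and Hpx in part. The NF-kB motif was in 5 of the 8, but 45.8% of all promoters held it. A match describes letters only and says nothing of binding.

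Lcn2 (chromosome 2) stood at 324 and 567 CPM in deep cells, a ratio of 1.75 (1.65–1.86), and at 349.6 and 569.5 CPM without cluster 1. Because neutrophils carry Lcn2 too, their marker S100a8 was read in the same cells. It stood at 59.9 and 6.24 CPM in deep cells, but 1 WT cell held 189 of the 216 WT UMIs, so the WT level rests mostly on that cell. Of 20 neutrophil granule genes 7 had at least 50 UMIs in deep cells. Of these 5 were lower in Tg, as were 6249 of all 10187 genes with as many UMIs. By 2-fold or more, 4 of the 7 were lower, against 3.48% of all genes. In the 74 and 886 deep cells with no S100a8 UMI, Lcn2 stood at 332 and 571 CPM (ratio 1.72, 1.603–1.843). The part of neutrophil RNA in the Lcn2 difference was not tested.

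The haem and haemoglobin binders were closer between the libraries than Saa1 and Saa2 in the main cells, though not with at most 10% mitochondrial UMIs, as given above. Hp (chromosome 8) stood at 4223 and 5837 CPM (ratio 1.38, 1.36–1.41; 1.29 without cluster 1). Hpx (chromosome 7) stood at 7555 and 7906 CPM (ratio 1.05, 1.03–1.06). Hpx was the member whose direction did not hold: without cluster 1 its values were 8393 and 7955 CPM (ratio 0.948). Orm1 (chromosome 4) stood at 3462 and 4530.2 CPM (ratio 1.31, 1.28–1.33; 1.25 without cluster 1). Its last 300 transcript bases are 97.7% identical to those of Orm2, so the split between the pair is uncertain, and Orm2 went the other way, at 613 and 353 CPM.

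The 3 fibrinogen chains lie within 1 stretch of chromosome 3 (GRCm38), Fgg at chr3:83007724-83015049, Fga at chr3:83026076-83033627 and Fgb, on the opposite strand, at chr3:83040141-83049863. In deep cells Fga stood at 2336 and 3070.5 CPM (ratio 1.31, 1.29–1.34). Fgb stood at 3086 and 4414 CPM (ratio 1.43, 1.40–1.46). Fgg stood at 2445 and 3224 CPM (ratio 1.32, 1.29–1.35). All 3 were thus higher in Tg by a similar factor, and without cluster 1 the ratios were 1.17, 1.29 and 1.19. The chains kept almost the same proportions in both libraries: Fga made up 29.7% and 28.7% of fibrinogen UMIs, Fgb 39.2% and 41.2%, and Fgg 31.1% and 30.1%.

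The sequences before the fibrinogen genes are shown because the chains lie close together while each has its own start. Capitals mark C/EBP, NF-kB, the STAT motif TTCNNNGAA and the core of the type II interleukin 6 element, CTGGGAA.
Fga, chr3:83025903-83026075, plus strand: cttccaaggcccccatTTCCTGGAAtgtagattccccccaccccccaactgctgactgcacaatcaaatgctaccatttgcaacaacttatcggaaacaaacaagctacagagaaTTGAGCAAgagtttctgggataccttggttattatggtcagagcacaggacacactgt
Fgb, chr3:83049864-83050113, minus strand: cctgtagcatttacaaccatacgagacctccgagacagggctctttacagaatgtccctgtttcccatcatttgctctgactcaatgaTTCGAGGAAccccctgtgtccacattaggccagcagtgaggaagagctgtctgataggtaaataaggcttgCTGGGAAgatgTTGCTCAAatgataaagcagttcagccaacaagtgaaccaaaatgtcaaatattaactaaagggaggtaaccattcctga
Fgg, chr3:83007474-83007723, plus strand: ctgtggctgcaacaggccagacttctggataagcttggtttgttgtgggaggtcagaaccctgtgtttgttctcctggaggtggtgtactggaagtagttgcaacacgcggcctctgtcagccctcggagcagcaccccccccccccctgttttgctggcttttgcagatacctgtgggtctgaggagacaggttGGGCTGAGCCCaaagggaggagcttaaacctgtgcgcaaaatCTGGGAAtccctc
The STAT motif was found before Fga and Fgb and in none of the other 6 members in the table; 7.02% of all promoters held it. CTGGGAA was found before Fgb and Fgg, and 9.10% of all promoters held it. In Fgg the capitals cover 2 overlapping NF-kB matches. The HNF1 motif GTTAATNATTAAC, spelled in full, was in none of the 8 members and in 3 of all promoters.

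**Figure D1:**
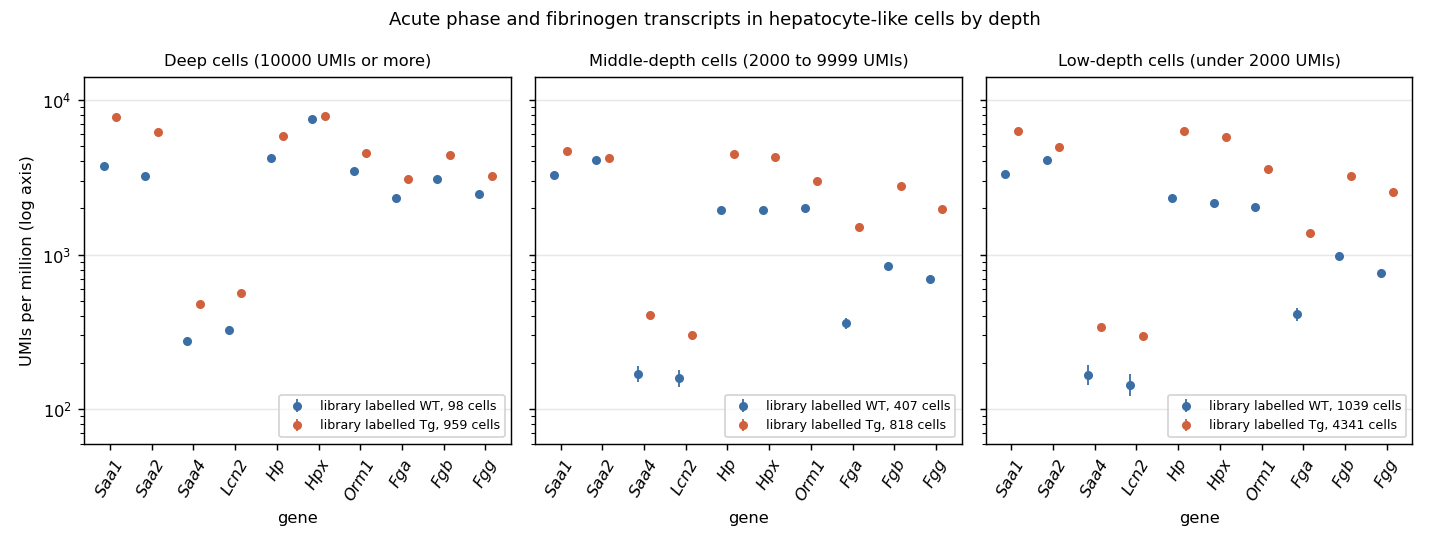
UMIs per 1000000 (log axis) of each of the 10 genes in deep, middle-depth and low-depth hepatocyte-like cells, 1 point per library with its 95% Poisson interval (smaller than the point for most). In deep cells Hpx is nearly level between libraries at 7555 and 7906 CPM, while in low-depth cells the fibrinogen genes of the WT library lie far below those of the Tg library.

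The distance between the libraries depended on depth. Over all hepatocyte-like cells the 10 genes had a median log2 ratio of 0.86 against -0.24 over all genes, and 3 were 2-fold or more higher, against 1.56% of all genes; without cluster 1 (270 and 4931 cells) none reached 2-fold, against 2.18% of all genes, and Saa1 was highest at a ratio of 1.996. In low-depth cells the median was 1.24 against -0.25 over all genes in the main cells, with 7 genes at 2-fold or more against 5.86% of all genes, and 0.61 without cluster 1 (176 and 3713 cells), where none reached 2-fold, against 9.09% of all genes, and Fgg was highest at a ratio of 1.74. In middle-depth cells 6 were 2-fold or more higher, against 6.55%, and 2 without cluster 1 (23 and 277 cells), against 7.61%.

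Within the WT library, low-depth cells held far less fibrinogen and haemopexin RNA per 1000000 UMIs than deep cells, but nearly as much Saa1 and more Saa2. Fga stood at 2336 CPM in deep, 360 in middle-depth and 413 in low-depth WT cells, and in the low-depth cells it was 0.177 (0.160–0.195) of its deep level. Hpx, Fgg and Fgb were at 0.283, 0.309 and 0.317 of their deep levels. Saa1 was at 0.877 (0.845–0.911), and Saa2 was higher in low-depth cells, at 1.28 (1.23–1.32). Lcn2, Hp, Orm1 and Saa4 lay between, from 0.444 to 0.602. In WT cells 5 of the 10 genes were at least 2-fold lower at low depth, as were 12.4% of all genes. Without cluster 1, which held 83.1% of the WT low-depth cells, the shortfall was much smaller: Fga was at 0.492 (0.427–0.566) of its deep level, Hpx at 0.588, Fgg at 0.601 and Fgb at 0.672, Saa1 was at 1.18 and Saa2 at 1.36. Only Fga of the 10 was then at least 2-fold lower in WT, as were 10.2% of all genes. In the Tg library Fga was again lowest, at 0.445 (0.434–0.457), with Lcn2 at 0.527 and the other 8 between 0.705 and 1.07, Hp being highest. There 1 of the 10, Fga, was at least 2-fold lower, as were 5.35% of all genes; without cluster 1 it was at 0.507 and none was, against 4.73%. Fga therefore took a smaller part of fibrinogen UMIs in low-depth cells, 19.2% in both libraries. Without cluster 1 its part there was larger in WT than in Tg. Low-depth UMIs of Fga, Fgb and Fgg were then 206, 366 and 259 in WT and 5307, 12028 and 9598 in Tg. Albumin, which is no member, was at 0.291 and 0.704 of its deep level. The median mitochondrial share differed along with depth, at 13.5% and 13.9% of UMIs in deep cells and 0.39% and 1.31% in low-depth cells; the part of this in the result was not tested.

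Low fibrinogen levels also occurred in deep cells. Those of cluster 1 (27 and 18 cells) had medians of 14148 and 14226 UMIs, and those of cluster 10, the cluster with most deep cells (61 and 776), 48509 and 33560. Fga stood at 190 CPM in cluster 1 against 2695 CPM in cluster 10 in the WT library, and at 532 against 3209 CPM in the Tg library. Saa2, by contrast, stood at 4036 against 3184 CPM in WT and at 5326 against 6644 CPM in Tg. Saa1 stood at 3218 against 3975 CPM in WT and at 5329 against 8316 CPM in Tg. Hpx stood at 1564 against 8916 CPM in WT and at 2491 against 8721 CPM in Tg. In cluster 1 of both libraries, the fibrinogen chains and haemopexin were thus far lower than in cluster 10. Saa1 was lower by less, and Saa2 was lower in Tg and higher in WT. Clusters were formed on these same transcripts, so this is a description of the cells and not a comparison.

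**Figure D2:**
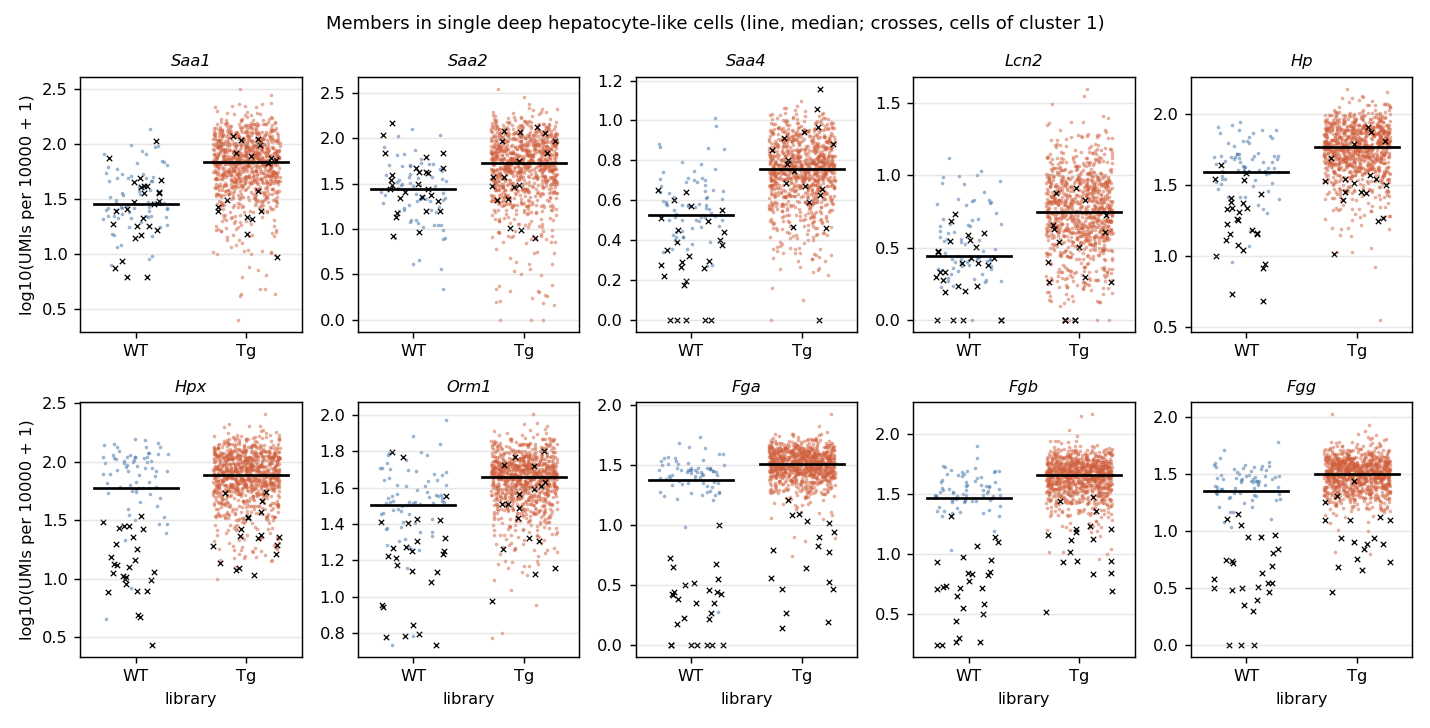
Each point is 1 deep hepatocyte-like cell of the WT (98) or Tg (959) library, as log10 of UMIs per 10000 plus 1; the line is the median and crosses are cells of cluster 1. The crosses sit at the foot of the Fga, Fgb and Fgg panels and among the other cells in the Saa1 and Saa2 panels.

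Single deep cells overlapped widely between libraries. Saa1 ranged from 5.15 to 138 UMIs per 10000 in WT cells with a median of 27.8, and from 1.53 to 320 with a median of 68.0 in Tg cells. Every deep cell of both libraries held Saa1. Saa2 ranged from 1.16 to 146 with a median of 26.4 in WT and from 0 to 348 with a median of 52.1 in Tg, where 3 cells had none. Lcn2 was lacking in 6 WT and 10 Tg cells, with medians of 1.75 and 4.62. Fga was spread more evenly among Tg cells: its 90th percentile was 2.11 times its 10th there, against 4.51 times for Saa1, 6.92 times for Saa2 and 7.38 times for Lcn2. Among WT cells the order was the other way. Fga spread 41.4 times, Fgg 16.1, Hpx 13.1 and Fgb 12.0 times, against 5.07 for Saa1, 6.98 for Saa2 and 8.17 for Lcn2. The WT cells of cluster 1 had a median Fga level of 1.41 UMIs per 10000 and the other deep WT cells 26.5. Among Tg deep cells Saa1, Saa2 and Lcn2 thus spread more from cell to cell than the fibrinogen chains (2.11 to 2.40 times), Orm1 (2.28 times), Hp (2.77 times), Saa4 (3.17 times) and Hpx (3.66 times). These spreads include counting error, which weighs more on genes with few UMIs. Lcn2 had a median of 14 UMIs per deep Tg cell, and the part of counting error in its place was not tested.

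Some of the 10 genes varied together across cells and others did not. In the deep cells of cluster 10, Spearman's rho of Saa1 with Saa2 was 0.83 across 61 WT cells and 0.85 across 776 Tg cells; as said, the division of reads within this pair is uncertain. Hp and Hpx, which lie on different chromosomes, had 0.72 and 0.76. Saa1 and Orm1 had 0.56 and 0.57. Among the chains Fgb and Fgg had 0.60 and 0.62, Fga and Fgg 0.44 and 0.49, and Fga and Fgb 0.26 and 0.41. The chains were not set apart from the haem binders in the WT library, where Hpx with Fgg had 0.61 and Hp with Fgb 0.55; in Tg these were 0.10 and 0.32. Saa1 was close to unrelated to the chains, with 0.03 and -0.01 for Fga. Saa4 was weakly related to the other amyloids, with -0.08 and 0.10 for Saa1. All of these cells share their library and their normalization to the cell's total, so the values are descriptions.

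**Figure D3:**
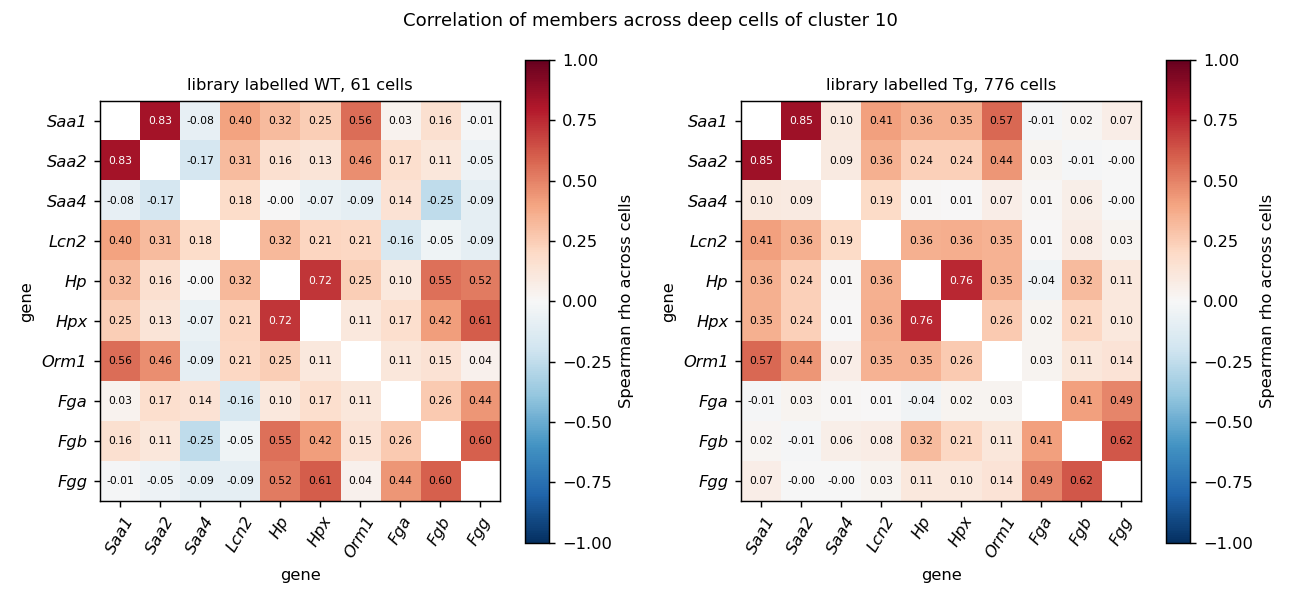
Spearman's rho between each pair of the 10 genes (rows and columns) across deep cells of cluster 10, by library. The Saa1 and Saa2 pair (0.83 and 0.85) and the Hp and Hpx pair (0.72 and 0.76) have the highest values in both libraries, and in WT Hp and Hpx are also related to Fgb and Fgg.

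Among 6831 genes with a UMI in at least 20% of the deep cells of each library, the genes most like the summed Saa1 and Saa2 level, by mean rho over the 2 libraries (98 and 959 cells), were those 2 genes themselves, then Orm1 (0.57), Ifitm2 (0.44) and Lcn2 (0.43). Fga came 149th and Saa4 907th. The genes most like the mean of the fibrinogen chains were the 3 chains, then albumin (0.68) and the vitamin D carrier Gc (0.65). Hpx came 11th, Saa1 461st and Saa2 1706th. The fibrinogen values were higher in the WT library (0.81 for albumin against 0.56 in Tg), of whose deep cells cluster 1 held 27 of 98; its part in this was not tested.

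Deep and middle-depth cells were then ordered by zone, from the portal side of the lobule, where blood enters, to the central vein. A score from fixed pericentral and periportal lists that contain none of the 10 genes cut the cells into 3 groups, called portal, middle and central, with equal weight for each library. Cyp2e1, a pericentral gene used in the score, stood at 7.80, 494 and 2236 CPM from the portal to the central group in WT and at 24.9, 420 and 3793 CPM in Tg. The portal group held 114 and 784 cells and the central group 228 and 383, and 30 and 127 cells lay near a boundary. The groups differed in depth, with medians of 17849 and 30094 UMIs in the portal group and 3536 and 4150 in the central group, and 218 of the 228 WT and 206 of the 383 Tg central cells were in cluster 1.

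The acute phase genes were mostly higher on the portal side: 9 of 10 in WT, where 28.6% of all genes were, and 10 of 10 in Tg, where 32.9% were. Genes outside the 10 sloped the same way. Central over portal, albumin had ratios of 0.141 in WT and 0.344 in Tg, and Itih4 0.212 and 0.667. Serpina3n had 0.306 and 0.757, and Orm2 0.647 and 0.818. Among the 10, Hpx had the steepest gradient. It went from 8356 to 1454 CPM in WT (central over portal 0.174, 0.166–0.183) and from 8788 to 3256 CPM in Tg (0.371, 0.364–0.377). Fga went from 2521 to 460 CPM in WT and from 3164 to 2072 CPM in Tg. Lcn2 went from 361 to 117 CPM in WT and from 619 to 238 CPM in Tg. Saa1 and Saa2 differed between the libraries in this respect: in Tg they went from 8305 to 4142 and from 6645 to 3237 CPM, ratios of 0.499 and 0.487, while in WT they went from 3939 to 2862 and from 3305 to 3428 CPM, ratios of 0.727 and 1.04; this difference was not tested. Of the central WT cells 218 of 228 were in cluster 1, and the like Saa2 level of the 2 central groups was not seen without it (2172 and 5069 CPM) or in deep cells alone (2903 and 4962 CPM). Saa4 was level in Tg, at 487 and 484 CPM.

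Outside cluster 1 the slopes were shallower but mostly kept their direction. In those cells (94 and 1218, groups cut anew) 9 of 10 genes in WT and 10 of 10 in Tg were higher on the portal side, where 42.9% and 45% of all genes were; Saa4 was the WT exception at 1.12. Hpx then had ratios of 0.504 and 0.625, Lcn2 0.420 and 0.670, and Fga 0.820 and 0.914. Saa1 had 0.701 and 0.829, and Saa2 0.766 and 0.833. Both were thus lower on the central side in both libraries, and by more in WT than in Tg. Of the genes outside the 10, albumin had 0.514 and 0.628 there and Itih4 0.803 and 0.851. Serpina3n had 1.01 and 0.995, and Orm2 1.01 and 1.22. In deep cells alone, 10 of 10 were higher on the portal side in both libraries, against 36.1% and 44.9% of all genes. Saa1 then had 0.734 and 0.811, and Saa2 0.989 and 0.811.

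**Figure D4:**
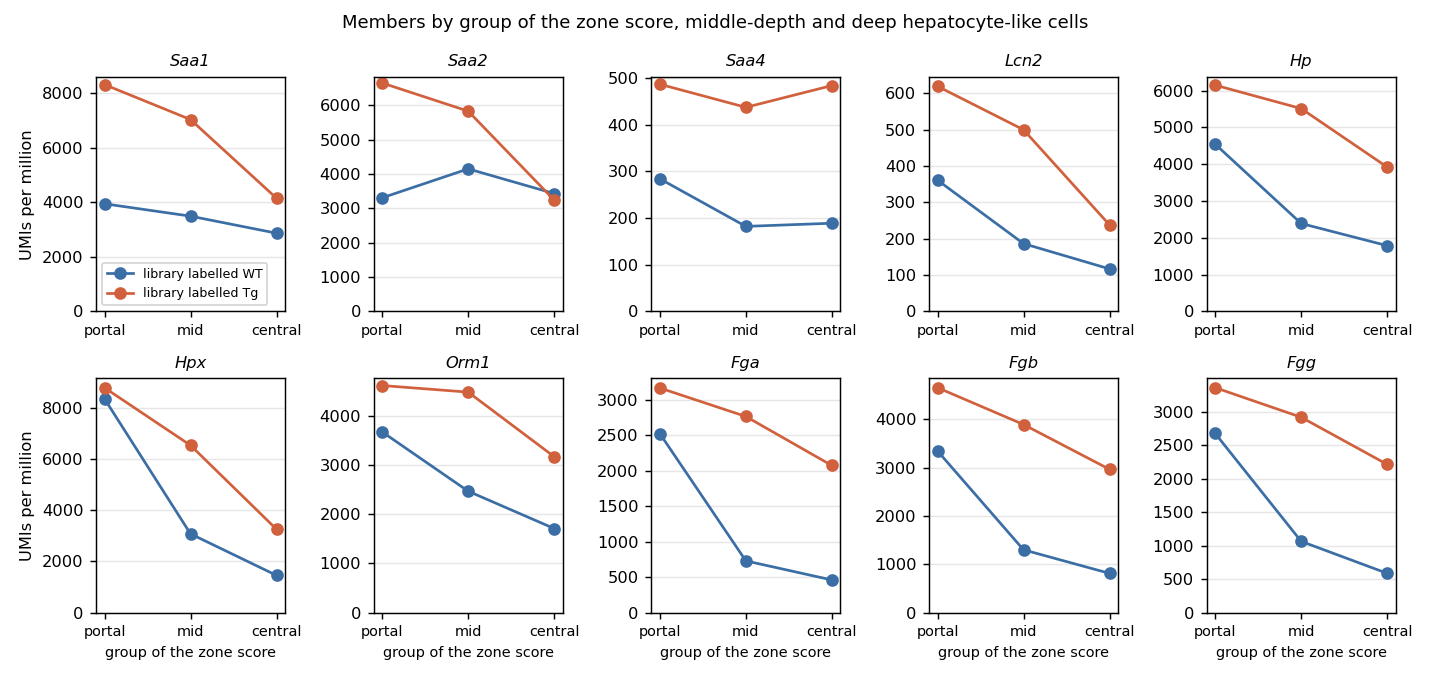
UMIs per 1000000 of each gene in the portal, middle and central group of the zone score, middle-depth and deep hepatocyte-like cells, by library (axes start at 0). Hpx and Lcn2 decline toward the central group in both libraries, Saa1 and Saa2 decline mainly in the Tg library, and Saa4 is level there.

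In neutrophil-like cells (321 and 196 cells, S100a8 at 77156 and 71737 CPM) 2 of the 10 genes stood far above what free hepatocyte RNA would give. The free-RNA estimate takes a gene's level in hepatocyte-like cells of the same library and scales it by the share of 15 other hepatocyte transcripts, such as Alb and Apoa1, in the class. Lcn2 stood at 2240 and 2869 CPM against estimates of 8.64 and 111 CPM, ratios of 259 (243–276) and 25.8 (24.5–27.2). Hp stood at 1804 and 2986 CPM against 114 and 1242 CPM, ratios of 15.8 (15.1–16.6) and 2.41 (2.29–2.53). The other 8 lay within 2-fold of this estimate in both libraries. With low-depth cells as its source, WT Fga was at 2.42, Hpx at 2.35, Fgb at 2.28 and Fgg at 2.12 times the estimate.

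The level above the estimate was also computed. For Lcn2 it was 2231 (2143–2321) and 2758 (2615–2907) CPM. For Hp it was 1690 (1611–1771) and 1745 (1598–1897) CPM, whereas the raw Hp level differed by a ratio of 1.66 (1.55–1.77). These intervals leave out the error of the estimate, which is low for Hp: in lymphocyte-like cells Hp was at 1.29 and 1.46 times it. Scaled by those factors, the estimate leaves 1657 and 1174 CPM of Hp, and 2233 and 2777 CPM of Lcn2 by its own factors, so which library had more Hp above free RNA is not settled. Lcn2 was unevenly held: 208 of 321 and 143 of 196 cells had a UMI, with medians of 1 and 3 per cell, and the 3 highest cells held 31.4% and 30.9% of all Lcn2 UMIs. Hp was found in 309 of 321 and 195 of 196 cells, and its 3 highest cells held 4.26% and 7.72%. Thinned to 500 UMIs a cell, 32.7% and 43.4% of neutrophil-like cells kept an Lcn2 UMI, against 0.306% and 2.97% of lymphocyte-like cells, which should lack it (median depths 2703 and 2277 UMIs against 5525 and 4187).

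Monocyte-like cells (330 and 320) held Hp at 292 and 737 CPM, 6.02 (5.68–6.38) and 2.04 times the estimate, in 215 and 313 cells. Their Lcn2 stood at 10.9 and 91.0 CPM, but in the Tg library 1 cell held 198 of the 288 UMIs, and the 4 cells with 2 or more S100a8 UMIs held 201 of them. In fibroblast- or mesothelial-like cells (149 and 130) Lcn2 stood at 38.2 and 51.3 CPM, 10.2 (7.94–13.01) and 1.34 times the estimate; the WT UMIs, 70 in all, were spread over 29 cells with at most 8 in 1 cell. In sinusoidal endothelial (LSEC)-like cells of the WT library Lcn2 was at 2.01 (1.64–2.45) times the estimate, with 107 UMIs in 41 cells, of which 3 cells held 39.3%, and none of these UMIs was in a cell with 2 or more S100a8 UMIs. In the Tg library it was at 0.793 times there. The WT value was not held up by other cell sets, at 0.731 with Leiden resolution 2.0 and 0.927 with at most 10% mitochondrial UMIs.

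Most values outside the hepatocytes lay close to the estimate. Over 9 other cell classes with at least 75 cells in each library, 82 of 90 WT values and 86 of 90 Tg values lay within 2-fold of it. The exceptions were 4 WT and 2 Tg values of Lcn2 and 2 of Hp in each library, all above, and 2 WT values of Saa4, below. These counts hold for the estimate from all hepatocyte-like cells. With low-depth cells as its source, further WT values lay above 2-fold. In WT lymphocyte-like cells Fga was then at 3.29, Fgb at 2.43, Hpx at 2.30 and Fgg at 2.25 times the estimate. In Tg they were at 1.53, 1.42, 1.35 and 1.28 times. Together the 10 genes made up 0.0790% of the UMIs of LSEC-like cells in WT and 0.716% in Tg, 790 and 7157 CPM, and the reference transcripts 0.308% and 1.90%. In these cells all 10 were 2-fold or more higher in Tg, against 5.63% of all genes, with a median log2 ratio of 3.16 against -0.13 over all genes. Saa1 stood at 112 and 1278 CPM in LSEC-like cells, at 85.6 and 991 CPM in lymphocyte-like cells and at 78.0 and 1216 CPM in Kupffer-like cells. In LSEC-like cells Fga had a ratio of 7.08, and Saa1 and Saa2 had 11.4 and 11.2. Lcn2 had 4.31, but its log2 ratio of 2.11 became 3.52 with Leiden resolution 2.0 and 3.37 with at most 10% mitochondrial UMIs.

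**Figure D5:**
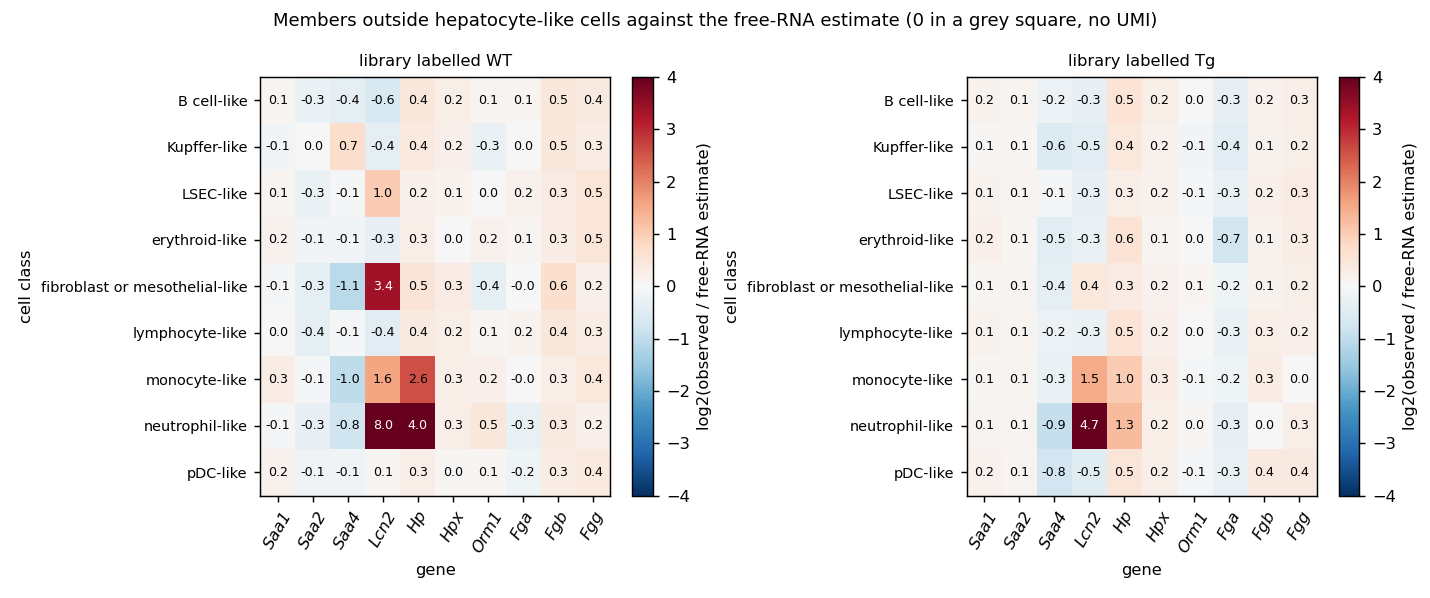
Log2 of the observed level over the free-RNA estimate for each gene (columns) in 9 cell classes (rows), by library. Most squares are close to 0; Lcn2 and Hp in neutrophil-like cells and Hp in monocyte-like cells are above it in both libraries.

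The wider acute phase program was read in deep cells from lists of related genes. The counts below are to be read against all genes in deep cells, of which 38.7% were higher in Tg, with a median log2 ratio of -0.086. Of 25 other positive acute phase genes 23 had at least 50 UMIs. Of these 18 were higher in Tg, with a median log2 ratio of 0.33. The highest were the metallothionein Mt2 (18.0 and 83.0 CPM), hepcidin, Hamp (268 and 578 CPM), which controls iron release, and the pentraxin Apcs (90.7 and 184 CPM). The lowest were Orm2, Saa3 (123 and 93.9 CPM) and the interleukin 1 receptor antagonist Il1rn (2.77 and 2.42 CPM). Of 15 negative acute phase genes, which fall in inflammation, 7 were higher and 8 lower, with a median of -0.022, whose sign turns with TMM scaling (0.065); albumin stood at 27996 and 23891 CPM and the thyroxine carrier Ttr at 8395 and 10392 CPM. Other coagulation proteins were evenly divided, 11 of 22 higher with a median of -0.00065 that becomes 0.086 with TMM scaling, from Serpinc1, antithrombin, at a ratio of 0.869 to Pros1, protein S, at 1.42.

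Receptors and signal carriers for the acute phase cytokines gave 9 of 24 measured genes higher in Tg, near the 38.7% of all genes, with a median of -0.062 that becomes 0.025 with TMM scaling. The highest were the tumour necrosis factor receptor Tnfrsf1b (6.101 and 12.69 CPM), the interleukin 1 receptor Il1r1 (13.6 and 20.5 CPM) and the transcription factor Cebpb (204 and 293 CPM). The lowest were Socs3 (23.8 and 15.2 CPM), which limits STAT3 signalling, the adaptor Myd88 (7.77 and 5.00 CPM) and Nfkbiz (11.6 and 9.15 CPM). Of the 10 cytokines that induce the response, Ctf1 alone reached 50 UMIs in deep cells, at 2.77 and 3.13 CPM.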

How the data were processed

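The deposited counts are whole UMI numbers for each gene in each barcode. Per the submitters' processing notes, the authors used Cell Ranger 6.1.2 and the build GRCm38 (mm10); the file headers name an earlier release. Free-RNA correction with SoupX is named in the series text; no source used here says whether it was applied to these counts. They were treated as uncorrected, on which the free-RNA estimate rests. Barcodes with at least 500 UMIs, 200 genes and at most 20% mitochondrial UMIs were kept. Scrublet's own threshold marked 0 cells in both libraries and so had not worked, and a maximum score of 0.2 removed 479 and 404 cells (3.70% and 2.72%). Counts per 10000 were log-transformed, 2000 variable genes gave 30 principal components, and Leiden clusters were taken at resolution 1.0 (scanpy 1.11.5, leidenalg 0.10.2).

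Clusters were named from marker lists, needing at least 3 enriched markers and 1 marker among 10 leading genes; for hepatocytes the zone and reference lists counted too, a choice made after the data were seen. Names rest on markers and may differ from the study's annotation. The 10 genes and all lists were chosen with earlier results of these data known. Named list genes are the 3 highest and 3 lowest log2 ratios with at least 50 UMIs, and likeness takes the 5 highest mean correlations.

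Each group is 1 library, so no test was possible. CPM carry exact Poisson intervals, ratios conditional binomial intervals. Ratios and intervals were tested on simulated data. Alternatives used edgeR 4.0.16 TMM factors and DESeq2 1.42.0 size factors; no count model was fitted. Promoter sequences are from RefSeq (GRCm38.p6), gene positions from GENCODE M21.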

Additional observations from a re-analysis of the deposited data

Results flagged for a closer look

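Barcodes with over 20% mitochondrial UMIs entered no comparison (829 in WT, 2573 in Tg). They held the 10 genes at 15044 CPM in WT and 25856 CPM in Tg, between the levels of LSEC-like cells (790 and 7157 CPM) and deep hepatocyte-like cells, so hepatocyte transcripts were also present among the barcodes left out.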

How the results depend on the processing

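No paired analysis was possible because each genotype is 1 library and the labels give no replicate numbers. In all hepatocyte-like cells the number of the 10 genes 2-fold or more apart, 3, became 7 with TMM factors, with DESeq2 size factors and with the mean over cells, 8 with at most 10% mitochondrial UMIs, and 0 without cluster 1. In deep cells that number, 1, became 2 with TMM factors, DESeq2 size factors, the mean over cells and without cluster 1, and 8 with at most 10% mitochondrial UMIs, a limit that leaves 32 and 162 cells. The deep median, 0.49, was then 1.597, and 0.37 without cluster 1; the low-depth median, 1.24, was 0.61 without it. TMM moves the median of all genes in deep cells up by 0.086; the negative acute phase, signalling and coagulation medians, -0.022, -0.062 and -0.00065, were 0.065, 0.025 and 0.086 with TMM and 0.066, 0.026 and 0.088 with DESeq2 factors, so these lists have no stable direction. Without cluster 1 the number 2-fold or more higher in Tg went from 7 to 0 in low-depth and from 6 to 2 in middle-depth cells, and the number 2-fold or more lower at low depth than in deep cells from 5 to 1 in WT and from 1 to 0 in Tg. Hpx without cluster 1 was at -0.070 in all and -0.077 in deep hepatocyte-like cells. The number of genes higher in the central group went from 1 to 0 in WT in deep cells alone and with at most 10% mitochondrial UMIs, and from 0 to 1 in Tg with the latter. Saa2 in WT was then at -0.015, -0.51 and, without cluster 1, -0.39 (central over portal, log2), Saa4 at 0.17 in WT without cluster 1 and at 0.13 in Tg with at most 10% mitochondrial UMIs. Lcn2 over its estimate in neutrophil-like cells was 368 and 41.1 with a low-depth source, 230.1 and 24.1 with a deep source, and 201 in WT with doublets kept. Settings that leave out cluster 1 or cells with S100a8, the scaled estimate and the other settings for single values over the estimate outside neutrophil-like cells were chosen after seeing the data. The cause of these shifts was not tested.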
